A study of Mus musculus with 4 samples.

Results

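The genes described here are the semaphorins, their plexin and neuropilin receptors, the ephrins and the Eph receptors of the mouse, taken by gene symbol from the deposited table of expression levels. The pattern for the symbols covered semaphorin classes 3 to 7, plexins A to D, both neuropilins, ephrins A and B, and EphA and EphB receptors. It found 53 genes among the 22186 in the table: 20 semaphorins, 9 plexins, 2 neuropilins, 8 ephrins and 14 Eph receptors. The pattern itself used no measured value, but it was chosen with earlier results of these data known.

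Semaphorins are secreted, membrane-spanning or lipid-anchored ligands that steer growing axons, vessels and migrating cells. They act through plexins, whose cytoplasmic part is a GTPase-activating domain for Ras-family proteins. Most secreted class 3 semaphorins need a neuropilin as the binding part of the receptor, whereas class 4 to 7 semaphorins mostly bind plexins directly. Ephrins are tethered to the cell surface, the A type by a lipid anchor and the B type by a membrane-spanning segment. They bind Eph receptors, the largest family of receptor tyrosine kinases, on a touching cell, and signals can run into both cells. In the intestine, EphB receptors and ephrin-B ligands are known for keeping cells in place along the crypt, and EphA2 and class 3 semaphorins have been widely studied in colon tumours.

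RNA was sequenced from MC38, a mouse colon cancer cell line, stably transfected with a CXCL14 construct behind a tetracycline-inducible (TetOn) promoter. The 2 control cultures received the solvent PBS and the 2 doxycycline cultures received 1 µg/mL doxycycline, the antibiotic that turns the promoter on, and all cultures ran for 72 h. In the series text, the 2 samples of a group are biological replicates, and it speaks of cells taken before and after induction, whereas the treatment protocol describes solvent-treated cultures grown alongside. Whether the line came from 1 clone is not given in the sources used here. Doxycycline was not given to cells lacking the construct, so an effect of the antibiotic and an effect of CXCL14 cannot be told apart.

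Cxcl14, the induced chemokine gene, was listed at 27.3 and 29.2 TPM without and 385 and 391 TPM with doxycycline, which goes with the labels. TPM is a transcript share scaled to gene length, so levels of different genes can be set beside each other. The tables give no counts, so the depth of the libraries is unknown. Of 10 colon epithelium markers, all lay below 1 TPM in each library. Their summed level was 0.830 to 1.26 TPM, with Cdh1, Krt19, Cdx1 and Cdx2 listed at 0 in all 4 libraries. These epithelial markers were thus near absent from cells labelled as a colon cancer line. The 8 endothelial markers summed to 1.42 and 1.51 TPM in the control and 0.564 and 0.690 TPM in the doxycycline libraries, with Cldn5 and Erg listed at 0 throughout. The 8 macrophage markers summed to 4.83 to 8.31 TPM, nearly all of it Cd68, with Laptm5, C1qa and C1qc listed at 0. The 8 neuronal and glial markers summed to 28.2 to 43.4 TPM, mostly Tubb3, with Snap25, Olig2 and Sox10 listed at 0. The 8 fibroblast markers summed to 3479 and 3671 TPM in the control and 518 and 555 TPM in the doxycycline libraries, almost all of it Dcn and Pdgfra, while Fap, Lum and Col1a2 stayed below 1 TPM in every library. Against that sum, Acta2 rose from 0.547 and 1.12 TPM to 3.98 and 3.50 TPM (log2 difference 1.39), and Col1a1, at 2.02 to 3.39 TPM, did not pass. These marker levels moved with the groups, and their part in the results below was not tested. In bulk RNA, fewer expressing cells and less RNA per cell cannot be told apart.

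Most of the guidance genes that MC38 cells expressed were lower after doxycycline. Of the 53 genes, 34 averaged 1 TPM or more across the 4 libraries and were tested. Among these, 24 fell, 5 rose and 5 did not pass, at a limma adjusted p under 0.05 over all genes tested. For scale, 64.4% of the 11359 genes tested passed in either direction, 35.4% as lower and 29.0% as higher, so a call by itself does not set a gene apart here. That balance depended on the scaling. Scaled by median ratios, 3649 genes rose and 3674 fell, 5 and 24 of them guidance genes. Under quantile normalization 3870 rose and 3356 fell, 5 and 22 of them guidance genes. The median log2 difference of the 34 was -0.77, beside -0.04 over all genes tested. A log2 difference of -1 or below was reached by 14 of the 34, beside 7.76% of all genes tested. A difference of 1 or above was reached by 1, beside 3.48%. Both doxycycline libraries lay below both controls for 28 of the 34 (45.0% of all genes tested) and above both for 5 (37.7%). Sema4d and Epha3 entered the test only through the group in which they were high. Sema4d was the 1 gene at 1 or above, Epha3 was among the 14, and both were in the counts without overlap. Without Sema4d and Epha3, 23 of 32 genes fell and 4 rose. Of the 11035 genes averaging 1 TPM or more in each group, 63.9% passed, 34.6% as lower and 29.3% as higher. The 53 genes together summed to 1836 and 1739 TPM in the control and 1196 and 1101 TPM in the doxycycline libraries.

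**Figure D1:**
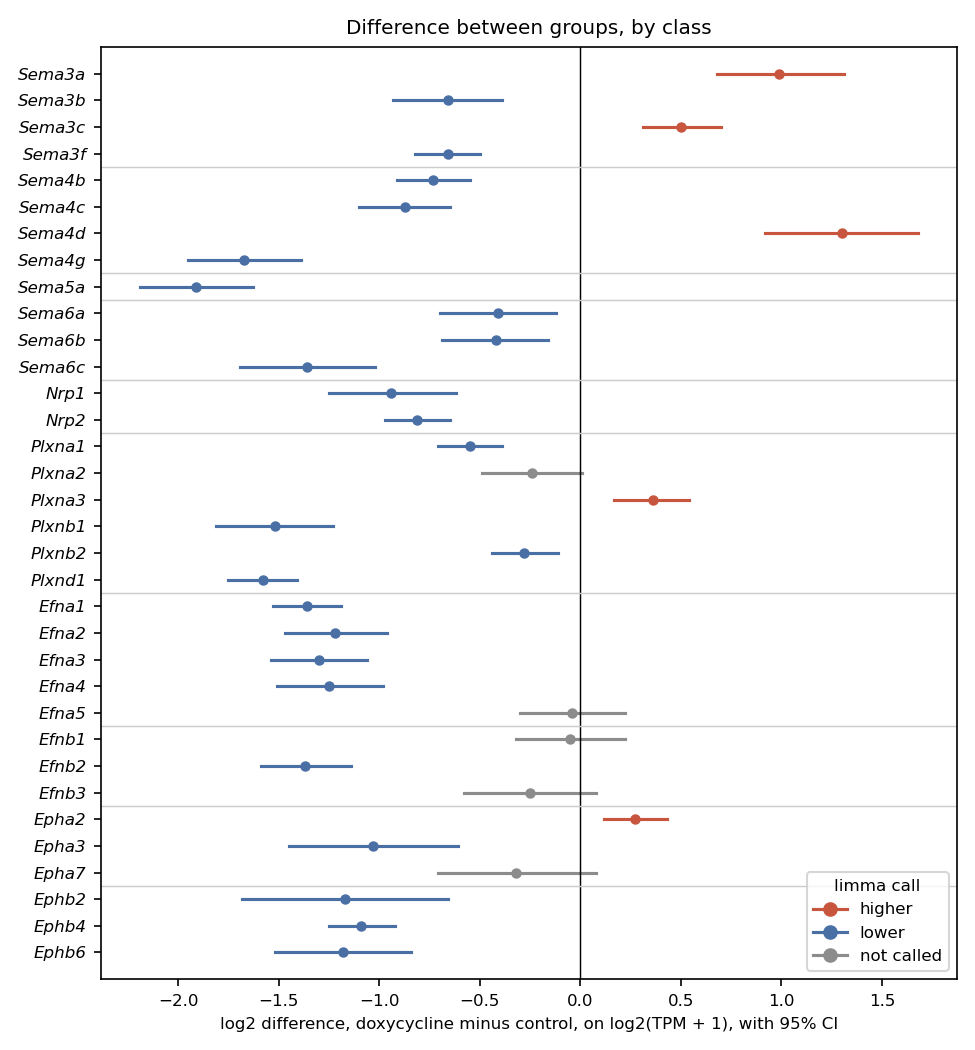
The horizontal axis gives the log2 difference between doxycycline and control libraries on the log2(TPM + 1) scale for the 34 genes tested, grouped by class, with points for estimates and bars for 95% confidence intervals from limma. The 24 blue genes fell, the 5 red genes rose (Sema3a, Sema3c, Sema4d, Plxna3 and Epha2) and the 5 grey genes did not pass.

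Of the remaining 19 genes, 6 were listed at 0 in all 4 libraries: Sema3e, the usual ligand of plexin D1, Sema5b, Epha4, Epha5, Epha6 and Ephb1. The other 13 had a mean below 1 TPM and were not tested. Sema4a stood at 0.878 and 0.576 TPM in solvent and 1.19 and 1.22 TPM in doxycycline cultures. Plxnc1, the receptor of semaphorin 7A, stood at 0.214 and 0.365 TPM in control and 0.671 and 0.682 TPM in doxycycline libraries. The gene of that ligand, Sema7a, was at 0.646 and 0.583 TPM without and 0.238 and 0.232 TPM with doxycycline. This ligand and its receptor, both scarce and untested, lay on opposite sides of the controls, without overlap between the groups. Such separation was common among genes tested, at 45.0% below and 37.7% above. Ephb3, a crypt receptor in the intestine, stood at 0.900 and 0.669 TPM in solvent and 0.393 and 0.361 TPM in doxycycline cultures. Sema3g stood at 1.03 and 1.02 TPM and at 0.836 and 0.769 TPM. Sema6d did not exceed 0.115 TPM in any library, Sema4f 0.101 TPM, Plxnb3 0.109 TPM, Sema3d 0.0329 TPM, Epha10 0.0264 TPM and Plxna4 0.0173 TPM. Epha1 and Epha8 ranged from 0.505 to 0.896 TPM and from 0.273 to 0.834 TPM, with overlapping groups.

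**Figure D2:**
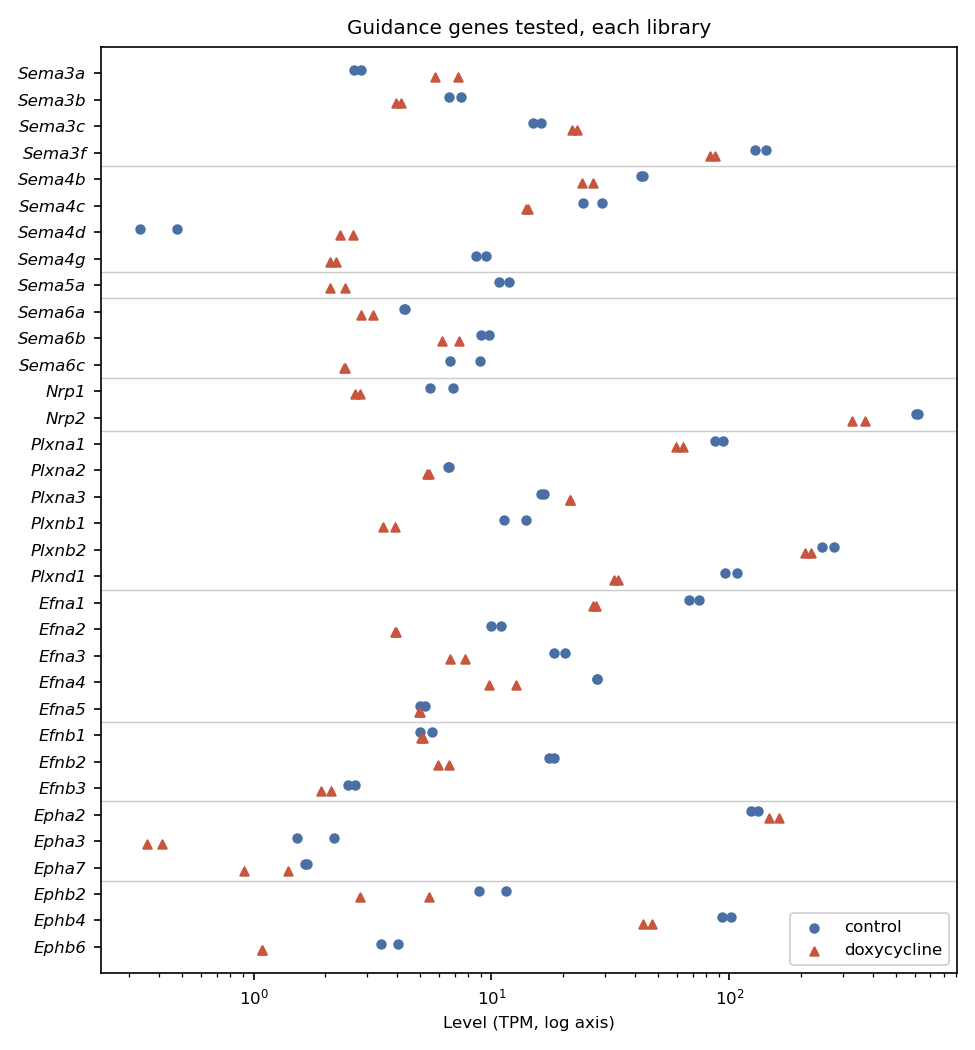
Each row is 1 of the 34 genes tested, with the level in TPM on a log axis for the 2 control libraries (circles) and the 2 doxycycline libraries (triangles). Nrp2, Plxnb2, Epha2 and Sema3f were the most abundant, and the groups overlapped only for Efnb1. The groups also lay apart for most of all genes tested, 45.0% as lower and 37.7% as higher.

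Among the secreted class 3 semaphorins the abundant gene fell and 2 scarcer ones rose. Sema3f, which signals through neuropilin 2 and is known as a repellent of vessels and tumour cells, stood at 142 and 128 TPM in control and 86.9 and 82.9 TPM in doxycycline libraries. That was a fall from 135 ± 10.1 to 84.9 ± 2.77 TPM (SD, n = 2 per group here and below), with a log2 difference of -0.66 (SE 0.07, limma adjusted p = 3.4e-05). Sema3b, its close relative and neighbour in a region often lost in human tumours, fell from 7.41 and 6.63 TPM to 4.15 and 3.98 TPM. Its log2 difference was also -0.66, but its mean fell 1.73-fold, beside 1.59-fold for Sema3f. Under quantile normalization the log2 difference of Sema3b was -0.36. Sema3a, the founding axon repellent, rose from 2.65 and 2.84 TPM to 7.20 and 5.77 TPM (log2 difference 0.99, SE 0.14, limma adjusted p = 2.0e-04). Sema3c, which acts through both neuropilins, rose from 14.9 and 16.1 TPM to 21.7 and 22.9 TPM (log2 difference 0.50, SE 0.09, limma adjusted p = 7.7e-04). In all 4 genes the doxycycline libraries lay wholly on 1 side of the controls. Most genes tested did so, 45.0% below and 37.7% above. Sema3f made up 84.5% and 82.8% of the summed class 3 level of controls and 71.9% and 71.3% with doxycycline, while Sema3c went from 8.87% and 10.4% to 18.0% and 19.7%.

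The class 4 semaphorins, which span the membrane, held a rise from a low level and a large fall. Sema4d, the plexin B1 ligand also known as CD100, was listed at 0.478 and 0.333 TPM without and 2.30 and 2.61 TPM with doxycycline. Its mean was 6.06 times that of the controls (log2 difference 1.30, SE 0.17, limma adjusted p = 1.3e-04), a size that depends on the pseudocount at such low levels and reached 2.35 with 0.1 TPM. It entered the test only through the doxycycline group, where it had to be higher to be tested at all, so its p supports nothing further. Sema4g fell from 8.62 and 9.52 TPM to 2.09 and 2.23 TPM, or 4.20-fold (log2 difference -1.67, SE 0.12, limma adjusted p = 3.5e-06). Sema4b and Sema4c, the abundant members of the class, fell from 42.4 and 43.2 to 26.8 and 24.0 TPM and from 29.1 and 24.3 to 14.0 and 14.2 TPM, with log2 differences of -0.73 and -0.87. Semaphorin 4C is a ligand of plexin B2. The summed level of the class went from 79.7 ± 2.54 to 45.4 ± 1.47 TPM.

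Classes 5 and 6, which also span the membrane, were lower without exception among their genes tested, beside 35.4% of all genes tested. Sema5a, whose extracellular part carries thrombospondin repeats, showed the largest fall of all 34 genes tested. It stood at 10.8 and 11.8 TPM in solvent and 2.43 and 2.09 TPM in doxycycline cultures, a 4.98-fold difference (log2 difference -1.91, SE 0.12, limma adjusted p = 1.5e-06). Sema6c fell from 8.95 and 6.68 TPM to 2.42 and 2.40 TPM (log2 difference -1.36, SE 0.15, limma adjusted p = 4.4e-05). Sema6a and Sema6b, ligands of class A plexins, fell by less, from 4.35 and 4.28 to 2.84 and 3.17 TPM and from 9.74 and 9.00 to 7.32 and 6.18 TPM. These 2 calls were not firm. Under quantile normalization the log2 differences were -0.10 for Sema6a (limma adjusted p = 0.53) and -0.14 for Sema6b (limma adjusted p = 0.29). In FPKM the log2 difference of Sema6a was -0.27. For Sema6a the limma adjusted p was 0.065 without control replicate 1, 0.056 without control replicate 2 and 0.11 without doxycycline replicate 1, and for Sema6b 0.067 without control replicate 1 and 0.08 without doxycycline replicate 2.

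**Figure D3:**
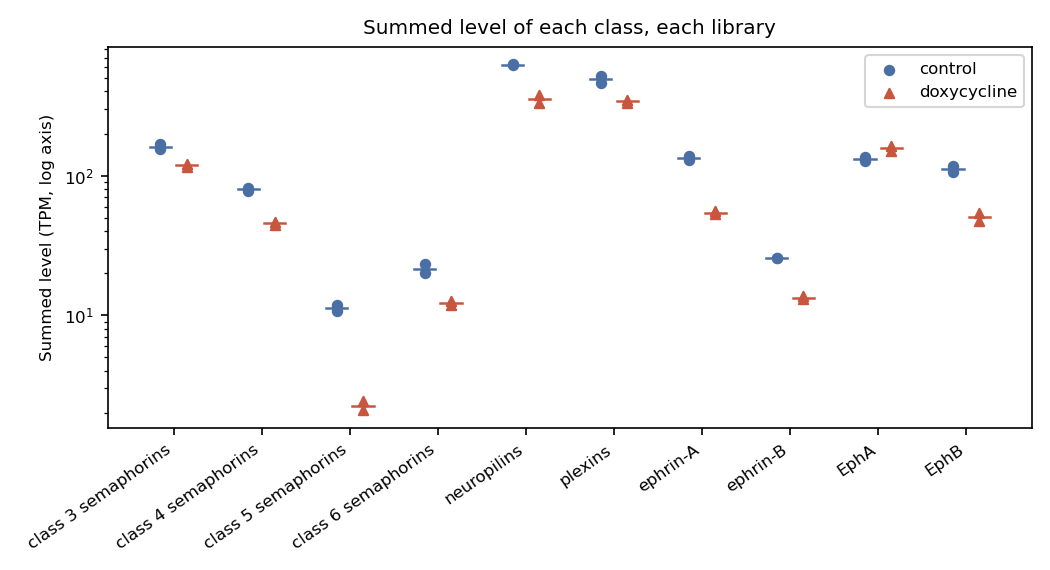
The vertical axis is the summed TPM of each class on a log axis, with circles for the 2 control libraries, triangles for the 2 doxycycline libraries and short lines for group means. EphA, at 136 and 128 TPM in control and 164 and 150 TPM in doxycycline libraries, was the only class shown that lay above the controls. Class 7, with Sema7a alone, is not drawn.

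Of the 8 semaphorin receptors tested, 6 fell, 1 rose and 1 did not pass. Among all genes tested, 35.4% fell and 29.0% rose. Nrp2, the neuropilin that binds semaphorin 3F and VEGF-C, was the most abundant of the 53 genes, at 621 and 608 TPM without and 373 and 328 TPM with doxycycline (log2 difference -0.81, SE 0.07, limma adjusted p = 1.2e-05). Nrp1, which binds semaphorin 3A and VEGF-A, fell from 5.51 and 6.90 TPM to 2.81 and 2.68 TPM (log2 difference -0.94, SE 0.14, limma adjusted p = 3.0e-04). Neuropilin 2 predominated in either state, since Nrp2 made up 98.9% to 99.3% of the summed neuropilin level in the 4 libraries.

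Among plexins, Plxnd1, the receptor of semaphorin 3E with a known part in vessel patterning, fell 3.05-fold from 108 and 95.6 TPM to 34.1 and 32.7 TPM (log2 difference -1.58, SE 0.08, limma adjusted p = 2.8e-07). Plxnb1, the receptor of semaphorin 4D, fell 3.38-fold from 13.9 and 11.3 TPM to 3.49 and 3.93 TPM (log2 difference -1.52, SE 0.13, limma adjusted p = 8.1e-06). Plxna1, a signalling partner of neuropilins, fell from 94.1 and 87.2 TPM to 63.7 and 59.5 TPM (log2 difference -0.55). An antisense transcript overlaps 10.7% of its exonic bases in GENCODE M21. Plxna3, another neuropilin partner, rose from 16.6 and 16.2 TPM to 21.3 TPM in both doxycycline libraries (log2 difference 0.36, SE 0.08, limma adjusted p = 0.0039). Plxnb2, the most abundant plexin, stood at 276 and 244 TPM in solvent and 221 and 208 TPM in doxycycline cultures (log2 difference -0.28, limma adjusted p = 0.0084). Without doxycycline replicate 2 its limma adjusted p was 0.0503. Plxna2 did not pass, at 6.54 and 6.63 TPM and at 5.46 and 5.37 TPM (log2 difference -0.24, 95% interval -0.49 to 0.01). In terms of shares, Plxnd1 went from 20.9% and 20.7% of the summed plexin level to 9.74% and 9.85%, and Plxnb2 from 53.6% and 52.9% to 63.2% and 62.8%.

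The ephrins split into 5 genes that fell by similar amounts and 3 that did not pass, whereas 35.4% of all genes tested fell. Efna1, the ligand first isolated as a gene induced by tumour necrosis factor and a high-affinity partner of EphA2, stood at 67.5 and 74.7 TPM in control and 26.6 and 27.5 TPM in doxycycline libraries (log2 difference -1.36, SE 0.07, limma adjusted p = 5.9e-07). Efna4 fell from 27.7 and 27.8 TPM to 12.7 and 9.74 TPM (log2 difference -1.25, SE 0.12, limma adjusted p = 1.6e-05). Efna3 fell from 18.4 and 20.3 TPM to 7.77 and 6.72 TPM (log2 difference -1.30, SE 0.11, limma adjusted p = 6.4e-06). In each of these genes both doxycycline libraries lay well below both controls. They lay below both controls in 45.0% of all genes tested. Efna2 fell from 11.0 and 10.0 TPM to 3.97 and 3.94 TPM (log2 difference -1.22). Efnb2, the transmembrane partner of EphB4 that marks arterial endothelium, fell from 17.4 and 18.3 TPM to 6.65 and 5.96 TPM (log2 difference -1.37, SE 0.10, limma adjusted p = 3.5e-06). Across these 5 genes the controls were 2.48 to 2.82 times the doxycycline level.

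Efna5, at 5.01 and 5.26 TPM without and 4.99 and 4.95 TPM with doxycycline, did not pass (log2 difference -0.04, 95% interval -0.30 to 0.22). Nor did Efnb1, the X-linked ephrin of craniofacial development, at 5.63 and 5.02 TPM and at 5.15 and 5.05 TPM (log2 difference -0.05, 95% interval -0.32 to 0.22). Their intervals leave out a fall of the size seen in the other 5. Efnb3 stood at 2.68 and 2.50 TPM and at 1.93 and 2.11 TPM (log2 difference -0.25, 95% interval -0.58 to 0.08), and quantile normalization turned all 3 of these differences above 0. Efna5 thereby went from 3.87% and 3.81% of the summed ephrin-A level to 8.91% and 9.37%. The summed ephrin-A level was 134 ± 5.98 TPM in the controls and 54.4 ± 2.23 TPM after doxycycline, and the summed ephrin-B level 25.7 ± 0.0792 and 13.4 ± 0.430 TPM.

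Efna1, Efna3 and Efna4 lie side by side on mouse chromosome 3 with no other protein-coding gene between them in RefSeq (GRCm38.p6). The protein-coding genes around them that were tested fell by less, did not pass or rose. On the Efna1 side, Slc50a1 had a log2 difference of -0.18 (limma adjusted p = 0.042, lost in 7 of 14 alternative settings), Dpm3 0.14 and Trim46 -0.01, neither of which passed. Krtcap2, which encodes an oligosaccharyltransferase subunit, rose from 275 and 258 TPM to 548 and 593 TPM (log2 difference 1.10). On the Efna4 side, Adam15, a metalloprotease gene, had a log2 difference of -0.32, and Zbtb7b of 0.05, which did not pass. In GENCODE M21, an antisense transcript overlaps 14.6% of the exonic bases of Efna3 and 10.5% of those of Efna4, and whether the counting used strand is not given in the sources used here. Efna1 had no such overlap.

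The letters just before the start sites are shown for these 3 neighbouring ligands, for their receptor gene Epha2, which moved the other way, and for Efnb2 and its receptor gene Ephb4, which both fell. They are the 250 bases upstream of the RefSeq start farthest 5′ in each gene, on the coding strand, from GRCm38.p6, chosen after the values were seen. Capitals mark GGGCGG, the core of a GC box bound by SP1 family factors, or its reverse complement. Efna1 lies at chr3:89280952-89281201, Efna3 at chr3:89322940-89323189, Efna4 at chr3:89338029-89338278 and Efnb2 at chr8:8661243-8661492, all on the minus strand. Epha2 lies at chr4:141300971-141301220 and Ephb4 at chr5:137349859-137350108, both on the plus strand.
Efna1: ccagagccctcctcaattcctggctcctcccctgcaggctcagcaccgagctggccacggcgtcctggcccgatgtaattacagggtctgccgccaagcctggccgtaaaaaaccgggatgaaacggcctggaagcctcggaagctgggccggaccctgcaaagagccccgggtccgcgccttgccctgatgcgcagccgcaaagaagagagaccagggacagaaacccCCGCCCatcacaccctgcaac
Efna3: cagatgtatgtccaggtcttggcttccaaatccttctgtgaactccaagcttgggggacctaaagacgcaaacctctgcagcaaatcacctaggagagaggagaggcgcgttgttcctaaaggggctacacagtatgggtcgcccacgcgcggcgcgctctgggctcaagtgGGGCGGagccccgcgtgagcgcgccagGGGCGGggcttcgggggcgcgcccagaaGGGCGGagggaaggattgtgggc
Efna4: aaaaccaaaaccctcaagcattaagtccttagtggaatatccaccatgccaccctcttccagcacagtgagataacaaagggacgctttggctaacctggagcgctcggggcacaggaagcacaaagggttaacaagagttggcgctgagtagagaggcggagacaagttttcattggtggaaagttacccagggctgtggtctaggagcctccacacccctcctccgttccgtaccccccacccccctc
Epha2: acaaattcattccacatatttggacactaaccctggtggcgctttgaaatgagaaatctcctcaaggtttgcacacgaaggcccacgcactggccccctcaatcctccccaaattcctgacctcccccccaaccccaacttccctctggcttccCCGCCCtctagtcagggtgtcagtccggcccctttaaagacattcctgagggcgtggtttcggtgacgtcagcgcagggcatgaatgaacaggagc
Efnb2: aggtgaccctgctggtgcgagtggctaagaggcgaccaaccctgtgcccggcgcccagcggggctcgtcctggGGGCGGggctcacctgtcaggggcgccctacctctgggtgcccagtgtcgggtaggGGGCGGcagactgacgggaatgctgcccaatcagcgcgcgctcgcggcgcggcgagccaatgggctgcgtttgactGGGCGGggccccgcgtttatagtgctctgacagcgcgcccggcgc
Ephb4: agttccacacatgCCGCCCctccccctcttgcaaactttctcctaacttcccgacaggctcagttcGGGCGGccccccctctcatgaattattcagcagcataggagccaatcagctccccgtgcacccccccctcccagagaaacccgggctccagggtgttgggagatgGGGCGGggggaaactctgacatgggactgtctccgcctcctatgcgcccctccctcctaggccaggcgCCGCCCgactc

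The windows differed among the genes that fell. Efna3 and Efnb2 each held 3 GC boxes, Ephb4 4, and Efna1 and Epha2 1 each, whereas Efna4, which fell as well, held none. The GC content was 64.8% in the Efna1 window, 63.6% in Efna3, 54.4% in Efna4, 55.6% in Epha2, 72.0% in Efnb2 and 64.0% in Ephb4. Windows were found for 47 of the 53 genes, 29 of them tested. A GC box stood in 17 of the 20 windows of genes that fell and 3 of the 5 of genes that rose. It stood in 61.0% of the windows of 9145 tested genes and 33.0% of all 27025 windows of this length. The median GC content was 64.8% in windows of tested guidance genes and 60.0% in those of all genes tested. The part of GC content in these counts was not tested. Other motifs were searched on both strands of the same windows. The NF-kappaB site, in a relaxed 10-letter form, was found in 1 of the 20 (Sema6c), beside 1.43% of windows of tested genes. The AP-1 form TGANTCA was also found in 1 of them (Sema4c), beside 3.96%. The hypoxia response core ACGTG was found in 3 (Ephb6, Sema4b and Sema4g) and in 1 of the 5 that rose (Sema3c), beside 22.4%. The E-box CACGTG, which contains that core, and the ATF4 composite form TGATGNAA were in 0 of these windows, beside 8.63% and 1.91%. These are letter matches in a short window and not binding sites.

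Of the 6 Eph receptors tested, 4 fell, 1 rose and 1 did not pass, beside 35.4% lower and 29.0% higher among all genes tested. Epha3, among the 4, entered the test only through the controls. Epha2, the main Eph receptor of these cells and of many carcinomas, was 1 of the 5 genes that rose, from 132 and 123 TPM in the controls to 162 and 147 TPM after doxycycline (log2 difference 0.27, SE 0.07, limma adjusted p = 0.0069). The rise was small, and its limma adjusted p was 0.0505 without control replicate 2 and 0.071 without doxycycline replicate 1. The EphB receptors tested all fell. Ephb4, the venous partner of ephrin-B2, fell from 102 and 93.1 TPM to 47.4 and 43.4 TPM (log2 difference -1.09, SE 0.07, limma adjusted p = 2.2e-06). Ephb6, a family member without kinase activity, fell from 4.05 and 3.44 TPM to 1.09 and 1.08 TPM (log2 difference -1.18). Ephb2, a target of Wnt signalling in intestinal crypts, fell from 11.5 and 8.88 TPM to 5.46 and 2.80 TPM (log2 difference -1.17, SE 0.23, limma adjusted p = 0.0016). Its doxycycline libraries lay far apart, and the log2 difference was -1.55 without doxycycline replicate 1 and -0.78 without doxycycline replicate 2.

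Of the scarcer EphA receptors tested, Epha3 fell and Epha7 did not pass. Epha3 stood at 1.52 and 2.18 TPM in solvent and 0.414 and 0.356 TPM in doxycycline cultures (log2 difference -1.03, limma adjusted p = 0.0011), a size that moved to -1.99 with a pseudocount of 0.1 TPM and -0.67 under quantile normalization. It entered the test only through the controls, where it had to be higher to be tested at all, so its p supports nothing further. Epha7 did not pass, at 1.68 and 1.64 TPM and at 0.913 and 1.39 TPM (95% interval -0.71 to 0.08). With Epha2 slightly up and Ephb4 down, the makeup of the receptor pool moved. Epha2 accounted for 51.7% and 52.6% of the summed Eph receptor level of controls and 74.1% and 74.3% with doxycycline, and Ephb4 for 40.0% and 39.8% and then 21.7% and 22.0%.

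**Figure D4:**
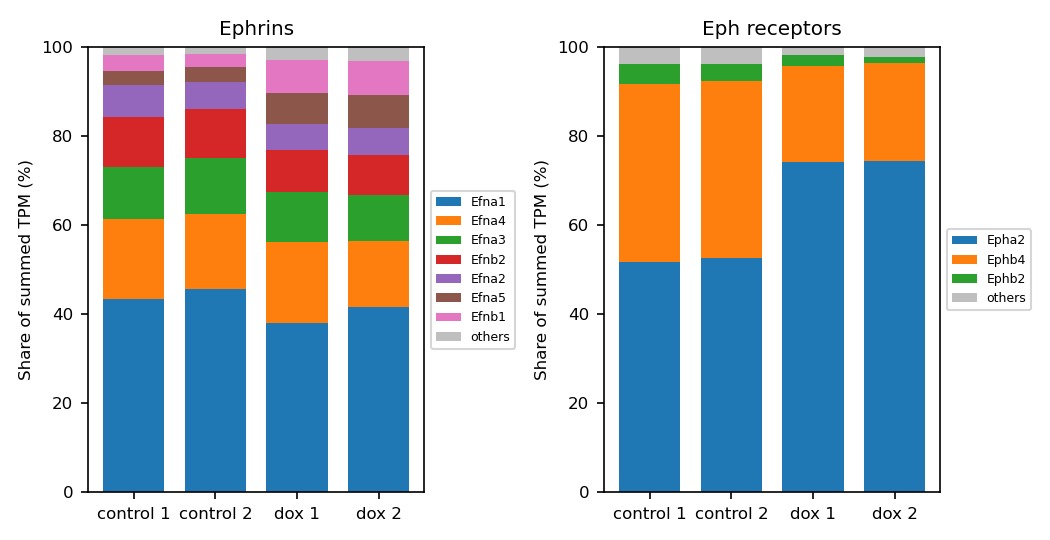
Stacked bars give each gene's share in percent of the summed TPM of ephrins (left) and of Eph receptors (right) in each of the 4 libraries. Epha2 filled 51.7% and 52.6% of the receptor bars of controls and 74.1% and 74.3% with doxycycline, while Efna1 stayed the largest ephrin at 38.1% to 45.6%.

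Known ligand and receptor pairs, picked after the values were seen, did not keep their proportions alike. For the repulsive pair Sema3a and Nrp1, ligand TPM per 100 receptor TPM stood at 48.1 and 41.1 without and 256 and 215 with doxycycline, since the ligand rose and the receptor fell. Sema4d and Plxnb1 moved apart further, from 3.45 and 2.96 to 65.9 and 66.3. The control ratios of this pair rest on Sema4d at 0.478 and 0.333 TPM, so their size is uncertain. Sema4d also entered the test only through the doxycycline group. Sema3f and Nrp2 fell nearly in step, with 22.9 and 21.0 without and 23.3 and 25.3 with doxycycline. In the remaining pairs the ligand lost ground to its receptor. Efnb2 per 100 Ephb4 went from 17.0 and 19.6 to 14.0 and 13.7, while both genes fell. Efna1 per 100 Epha2 went from 51.3 and 60.8 to 16.4 and 18.7, and Sema4c per 100 Plxnb2 from 10.5 and 9.96 to 6.33 and 6.83. These are ratios of RNA levels in the same culture and carry no test.

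**Figure D5:**
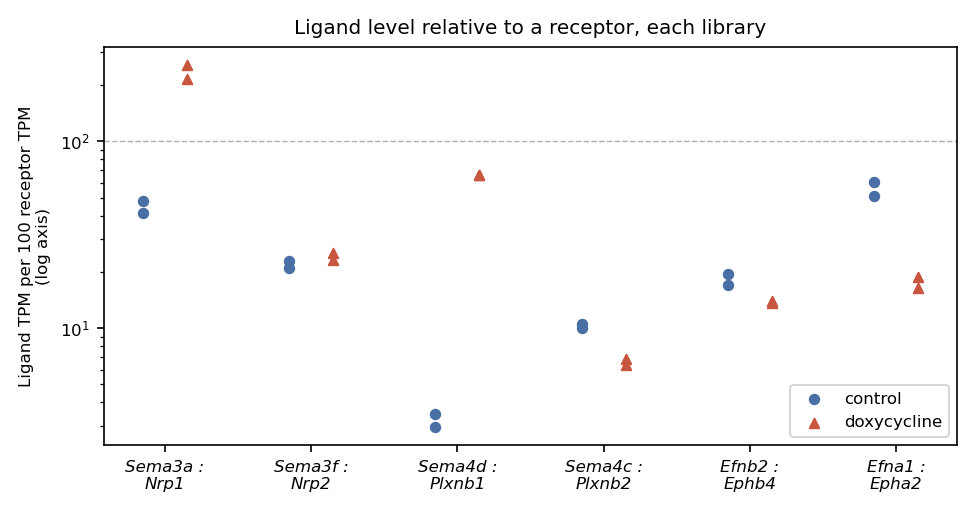
The vertical log axis gives ligand TPM per 100 receptor TPM for 6 ligand and receptor pairs in the 2 control (circles) and 2 doxycycline (triangles) libraries, and the dashed line marks equal levels. Sema3a crossed that line relative to Nrp1, from 48.1 and 41.1 to 256 and 215, whereas Sema3f relative to Nrp2 stayed between 21.0 and 25.3.

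RNAs for proteins that carry the signal inward changed in both directions. Of 46 partners and effectors of semaphorin receptors, 34 were tested, 7 rose and 14 fell, with a median log2 difference of -0.09. That was 61.8% called, close to the 64.4% of all genes tested. Rnd1, a small GTPase that binds plexins, rose from 13.5 and 17.2 TPM to 52.8 and 56.1 TPM (log2 difference 1.77), and Arhgef11, the PDZ-RhoGEF that plexin B1 engages, from 44.3 and 42.5 TPM to 136 and 153 TPM (log2 difference 1.71). Cdk5, a kinase of the semaphorin 3A response, fell from 72.4 and 70.6 TPM to 22.2 and 21.6 TPM (log2 difference -1.66). The collapsin response mediators Dpysl2 and Dpysl3 fell from 28.8 and 32.6 to 13.0 and 12.2 TPM and from 130 and 131 to 68.9 and 59.5 TPM, and the tyrosine kinase gene Fes fell as well (log2 difference -0.84). Met, the HGF receptor that plexin B1 can couple to, had a log2 difference of 0.01 with a 95% interval of -0.15 to 0.18, at 28.9 to 29.9 TPM, and was named after its value was seen.

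Of 47 partners of Eph receptors and ephrins, 39 were tested, 8 rose and 20 fell, with a median log2 difference of -0.22. That was 71.8% called, beside 64.4% of all genes tested. Pik3r1, the p85 regulatory subunit of phosphoinositide 3-kinase, fell from 183 and 204 TPM to 33.0 and 28.9 TPM (log2 difference -2.60, SE 0.08, limma adjusted p = 3.2e-08). The adaptor Nck2, the kinase Lyn and Rgs3, a regulator of G-protein signalling known to bind ephrin-B, fell with log2 differences of -1.54, -1.45 and -1.40. Src, a kinase recruited by Eph receptors and ephrins, rose from 123 and 115 TPM to 318 and 306 TPM (log2 difference 1.39), and the polarity gene Pard6a from 11.5 and 8.78 TPM to 35.7 and 34.7 TPM (log2 difference 1.71). Adam10, the protease that cleaves ephrins, fell from 95.5 and 96.5 TPM to 67.6 and 65.9 TPM (log2 difference -0.52). It was named after its value was seen.

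Guidance genes outside these families that passed were lower with 1 exception. Of 30 netrin, slit and related ligands, receptors and adaptors, 19 were tested, 1 rose and 11 fell, with a median log2 difference of -0.58. The share called, 63.2%, was close to the 64.4% of all genes tested, of which 35.4% fell and 29.0% rose. Of the 19, 7 were lower by 1 or more on the log2 scale, Draxin among them, beside 7.76% of all genes tested. Ntn1, which encodes netrin 1, fell from 81.4 and 77.5 TPM to 20.5 and 18.2 TPM (log2 difference -1.99, SE 0.08, limma adjusted p = 1.0e-07). Draxin, a netrin antagonist, stood at 4.11 and 5.93 TPM in control and 0.199 and 0.155 TPM in doxycycline libraries (log2 difference -2.34), having entered the test through the controls alone. Lrig1, Flrt2, Unc5d and Rgmb fell with log2 differences of -1.52, -1.63, -1.16 and -1.15. The 1 gene that rose, named after its value was seen, was Srgap2, a GTPase-activating adaptor of Robo receptors, from 44.0 and 36.9 TPM to 53.1 and 51.0 TPM (log2 difference 0.36). The differences between these lists were not tested. Each call uses a spread in which limma combines the gene's own spread with a trend over all genes tested. The smallest p of an exact two-sided permutation test with 2 libraries a group is 0.33.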

How the data were processed

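RNA sequencing of 4 libraries was analysed, 2 of control and 2 of doxycycline-treated MC38 cells, grouped by the sample titles. The authors deposited TPM and FPKM per gene symbol, per the file headers, and TPM were 3.08 to 3.14 times FPKM in each library. The submitters' processing notes name mm39 as the build. Which aligner, quantifier and gene models served is not given in the sources used here. Depth is unknown, so no counting interval is given. The whole table was tested on log2(TPM + 1) with limma 3.58.1 in R 4.3.3 (lmFit, eBayes with a mean-variance trend, no covariate), for genes averaging 1 TPM or more, with Benjamini-Hochberg adjustment over 11359 genes and calls at an adjusted p under 0.05. Log2 differences are on that scale, on which a change of a low gene looks smaller than it is, whereas folds are ratios of mean TPM. The fit was tested on simulated data. Summaries used Python 3.11.15 and pandas 2.3.3. Promoter letters came from RefSeq (GRCm38.p6), and exon overlaps from GENCODE M21, an earlier build than mm39, so neither was joined to coordinates of the data.

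All members could be named. Of each partner list, the 6 called genes with the largest difference are named. The members and lists were chosen with earlier results of these data known. Alternatives were pseudocounts of 0.1 and 0.5 TPM, filters at 0 and 5 TPM, FPKM in place of TPM, quantile normalization, median-of-ratios scaling, a replicate block, eBayes without trend or with robust variances, and leaving out each library.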

Additional observations from a re-analysis of the deposited data

How the results depend on the processing

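Under 14 alternative settings, the 29 guidance genes called all kept their direction and 25 kept their call wherever they were tested. The exceptions were Sema6a, Sema6b, Plxnb2 and Epha2. Between 23 and 32 of the 53 guidance genes were called (6249 to 7501 of all genes), and leaving out each library in turn gave 27 guidance genes called each time, with 4 to 5 higher and 22 to 23 lower. With a filter of at least 5 TPM, 3 were higher, since fewer genes were tested. Without a filter, 2 of the other guidance genes were higher instead of 1. Directions reversed only for genes that had not passed. Under quantile normalization the log2 differences were 0.06 for Plxna2, 0.25 for Efna5, 0.24 for Efnb1, 0.10 for Efnb3 and 0.02 for Epha7, and leaving out each library gave -0.12 to 0.02 for Efnb1, the upper value without control replicate 1. The cause was not tested. The sample titles number the replicates alike, but nothing says that a number marks a shared day or stock, and same-numbered deviations had a correlation of -0.01 across genes. A replicate block left 29 guidance genes called and 7501 genes in all. Where 1 library was left in a group, its spread was taken to equal that of the other. Levels near 1 TPM, with unknown depth, limit what can be said of the 19 genes not tested.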
